A study of Ovis aries with 36 samples.

Results

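A set of 189 genes of 26478 was selected because their RNA stood far higher in the sheep pineal gland than in the hypothalamus and the pars tuberalis, and this set is described here across those 3 tissues and across sexual behaviour state. A gene was a member if its median over the 12 pineal libraries was at least 10 CPM (counts per 1000000 counts of the library) and at least 10 times its median in each of the other 2 tissues. The tissue levels therefore chose the members, and the gap between the pineal gland and the other tissues is given as a description with no test. Gene identifiers stand without names, because the deposited counts do not pair them with names and none could be matched to a symbol with the reference at hand. The roles of single members and their sequences are for that reason not described, and the label pineal-enriched rests on the measured levels alone.

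The 36 libraries came from 12 adult rams of the sheep breed Rasa Aragonesa, with 1 hypothalamus, 1 pars tuberalis and 1 pineal library from each ram. Animals 1 to 6 were sexually active and animals 7 to 12 were not active (inactive), which gives 6 groups of 6 libraries by tissue and state. The study set out to find genes whose expression differs by sexual behaviour, with state as the first factor and tissue as the second. No treatment is named for any group, and neither the season nor the time of day of collection is given in the sources used here.

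The pineal gland makes melatonin during darkness, and its main cells, the pinealocytes, are related in origin to the photoreceptors of the retina. The length of the nightly melatonin signal carries day length to the body, and in sheep it times the breeding season. The pars tuberalis of the pituitary is rich in melatonin receptors, and neurons of the hypothalamus control reproductive hormones and sexual behaviour.

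Library totals ran from 19251952 to 72951491 counts. Members took a median of 6.61% of all counts in the pineal libraries, from 6.26% in animal 5 to 7.93% in animal 1. They took 0.123% to 0.241% of counts in hypothalamus libraries and 0.092% to 0.136% in pars tuberalis libraries. The labelled tissues could not be checked against marker genes without names. Genes chosen by the mirrored rule are low in the other tissues by that choice, and serve here only to set libraries of 1 tissue beside each other. Those of the hypothalamus (176 genes) stood in the pineal libraries at a median of 2.22% to 4.41% of their hypothalamic level, except 11.1% in the pineal library of animal 10. Those of the pars tuberalis (169 genes) stood in the hypothalamus libraries at 1.90% to 4.76% of their own level, except 18.1% in animal 4. State in the pineal gland was tested below with and without that pineal library of animal 10. State in the hypothalamus, and pars tuberalis against hypothalamus, were tested with and without the hypothalamus libraries of animals 2 and 4. The spreads, correlations and shares of counts below use all libraries. In bulk tissue, fewer cells of a type and less RNA per cell cannot be told apart.

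Members spanned a wide range of level in the pineal gland. Their pineal medians ran from 10.03 to 4102 CPM, with a median over members of 121.6 CPM and quartiles of 43.7 and 298.3 CPM. There were 104 members at 100 CPM or more and 17 at 1000 CPM or more. CPM is not divided by gene length, so these levels order reads and not molecules. The 2 most abundant members held 11.6% of the summed level, the top 10 held 38.2% and the top 20 held 57.2%.

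The member of highest median was ENSOARG00020005674. Its pineal level in active rams 1 to 6 was 5493, 3952, 5445, 4426, 2831 and 6019 CPM, and in inactive rams 7 to 12 it was 2577, 4038, 4796, 3852, 4023 and 4167 CPM. The groups overlapped, and the lowest gland of all, that of animal 7, was inactive. Its medians were 98.8 CPM in hypothalamus and 30.1 CPM in pars tuberalis. Pooled over libraries, the pineal gland stood 36.1 times above the hypothalamus (95% counting interval 35.7 to 36.4, which covers counting error only). The second, ENSOARG00020026297, was at 4505, 2741, 3311, 2764, 4663 and 3861 CPM in the pineal glands of active rams and at 4747, 2587, 3677, 2669, 2778 and 4226 CPM in those of inactive rams. High and low glands occurred in both states, and the lowest and highest gland were both inactive. Its median was 12.0 CPM in hypothalamus and 21.6 CPM in pars tuberalis, and its pooled pineal level was 174.1 times that of the pars tuberalis (170 to 178).

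**Figure D1:**
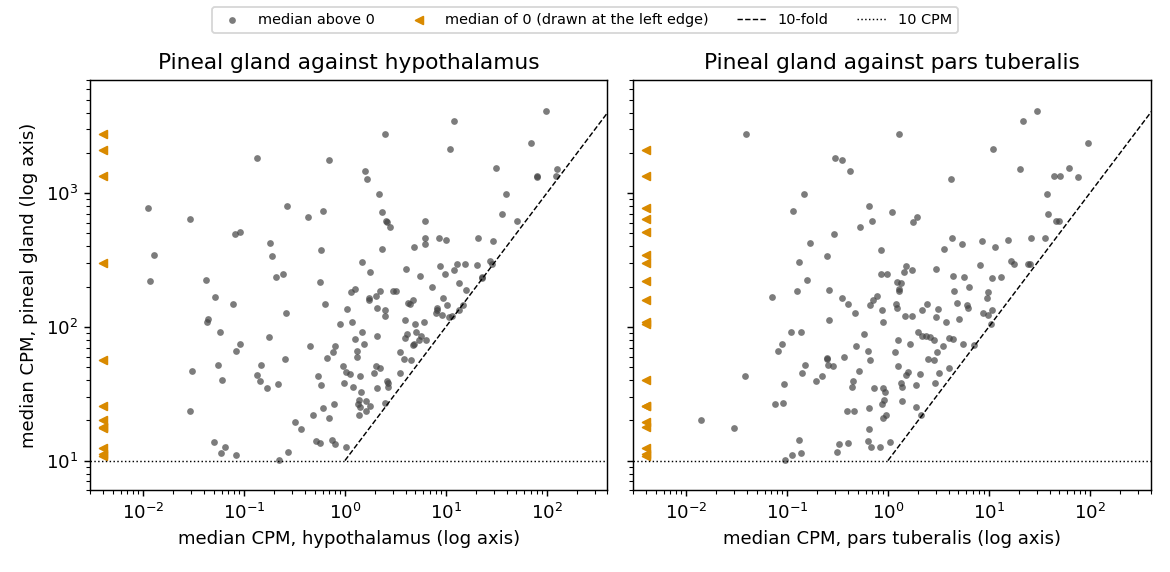
Median CPM of the 189 members in the pineal gland (vertical, log axis) against the hypothalamus (left, horizontal, log axis) and the pars tuberalis (right), 1 point per gene and 12 libraries per median. The dashed and dotted lines are the 10-fold and 10 CPM limits of the selection, and triangles mark members with a median of 0, 12 for the hypothalamus and 19 for the pars tuberalis.

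The distance to the next tissue also varied among members. The fold over the higher of the other 2 medians was 10 to 20 for 63 members, 20 to 50 for 50, 50 to 100 for 20 and at least 100 for 56. Of these last, 26 were at 1000-fold or more, including 8 with a median of 0 in both other tissues. The 2 largest ratios of pooled levels belonged to ENSOARG00020015837 and ENSOARG00020005641. ENSOARG00020015837 was at 1050 to 1900 CPM in the 12 pineal glands, and all 24 libraries of the other tissues held only 4 (hypothalamus) and 7 (pars tuberalis) of its counts. ENSOARG00020005641 was at 1010 to 4280 CPM in the pineal gland, with 15 counts in hypothalamus and 3 in pars tuberalis libraries. Their pooled ratios to the higher of the other tissues were 71040 (34480 to 176700) and 64910 (39360 to 116000).

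At the near edge of the fold limit lay ENSOARG00020009512 at 10.01 and ENSOARG00020021229 at 10.05 times the next tissue. Just outside were ENSOARG00020003199 at 9.80 and ENSOARG00020002008 at 9.76. At the level limit, ENSOARG00020026079 with 10.03 CPM and ENSOARG00020000674 with 10.8 CPM were inside, and ENSOARG00020013080 with 9.47 CPM and ENSOARG00020020841 with 9.15 CPM were outside. The set grades into the genes around it at both limits.

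Outside the pineal gland most members were low but measurable. In the hypothalamus 114 members had a median of 1 CPM or more and 29 reached 10 CPM. In the pars tuberalis the numbers were 94 and 25. Relative to the pineal median, the median member was at 1.87% in hypothalamus (quartiles 0.283% and 5.29%) and at 1.15% in pars tuberalis (0.231% and 3.73%). ENSOARG00020020628 and ENSOARG00020023898, chosen after their values were seen, had no count in either tissue. Against a floor of 3 counts over the 12 libraries of a tissue, their pooled pineal levels of 20.4 and 26.6 CPM were at least 2360-fold and 3080-fold higher than in the pars tuberalis, and at least 2540-fold and 3310-fold higher than in the hypothalamus. ENSOARG00020013684, chosen in the same way, and ENSOARG00020000674 had no count in the pars tuberalis only.

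In 181 of the 189 members the lowest pineal library lay above every library of the other tissues. The other 8 had at least 1 pineal gland inside the range of another tissue.

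**Figure D2:**
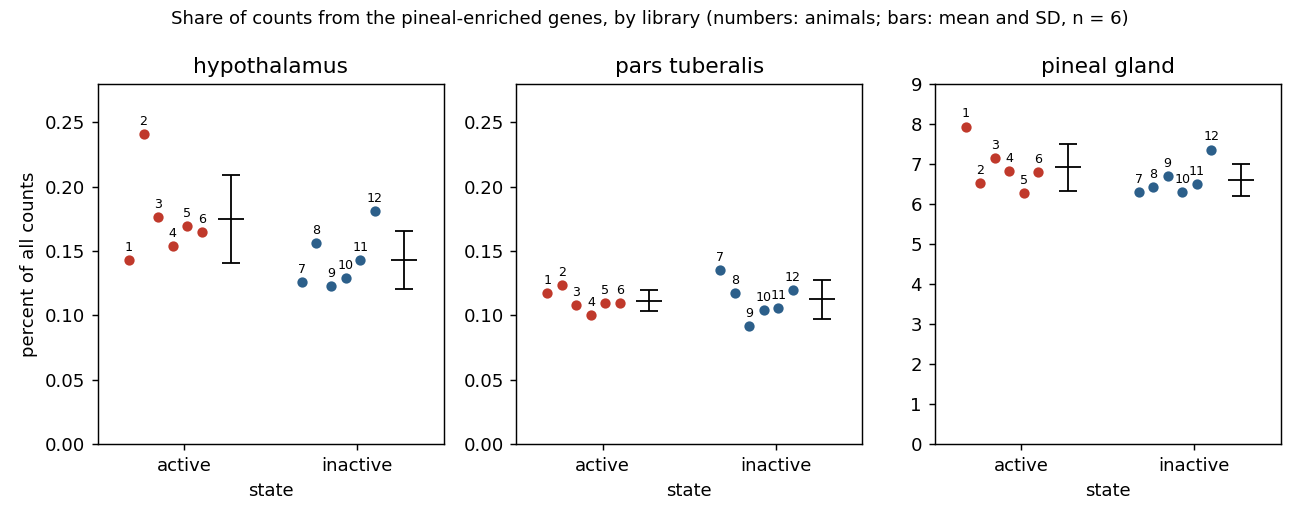
Percent of each library's counts that came from the 189 members (vertical axes start at 0 and differ in range for the pineal gland), by tissue and state. Points are libraries with animal numbers and bars are mean and SD (n = 6). Animal 2 stands highest among the hypothalamus libraries at 0.241%.

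In each tissue the mean share of counts taken by the members differed between states by less than the larger of the 2 SDs. In the pineal gland it was 6.91% ± 0.581 (SD, n = 6) in active and 6.59% ± 0.401 (SD, n = 6) in inactive rams. In the hypothalamus it was 0.175% ± 0.0344 in active and 0.143% ± 0.0225 in inactive rams, and in the pars tuberalis 0.112% ± 0.00807 and 0.113% ± 0.0151 (all SD, n = 6). In each tissue the ranges of the 2 states overlapped. The high hypothalamus library of animal 2 stood 1050 CPM above the members' summed medians over the other hypothalamus libraries. ENSOARG00020017284 and ENSOARG00020005674 held 48.6% of that excess, and the first alone held 24.8%. ENSOARG00020017284, chosen after its values were seen, stood at 375 CPM there, against 172 CPM in the next hypothalamus library and a tissue median of 125 CPM.

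The 56 members at 100-fold or more stood in the hypothalamus at 0.136% to 0.272% of their summed pineal level in 11 libraries and at 0.677% in animal 10. In that library 79.9% of their 10040 counts, 8021 counts, came from ENSOARG00020013877. Its hypothalamic level was 1.48, 1.08, 3.74, 2.98, 2.46 and 1.09 CPM in active rams and 1.58, 3.13, 1.86, 187, 2.19 and 3.64 CPM in inactive rams. A single hypothalamus, that of animal 10, stood apart and all 11 others lay between 1.08 and 3.74 CPM. The same ram was not apart in the other tissues, with 447 CPM in its pineal gland (tissue median 381 CPM) and 1.92 CPM in its pars tuberalis (median 3.57 CPM). Without this member the far-enriched group stood at 0.138% in animal 10, inside the range of the other libraries (0.133% to 0.272%).

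Between animals, pineal members varied more than other genes of the gland. The coefficient of variation (CV, SD over mean) of CPM across the 12 pineal libraries had a median of 28.0% over members (quartiles 19.3% and 40.7%). Over the other 10276 genes with a pineal median of 10 CPM or more it was 16.6% (11.8% and 23.5%). A CV of 50% or more was seen in 32 members (16.9%) and in 2.60% of the others. The highest gland was at least 3 times the lowest in 71 members (37.6%) and in 9.13% of the others, and at least 10 times in 20 members (10.6%) and in 0.866%. These comparisons are descriptions, since the pineal levels chose the members.

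The wider spread was found at moderate levels and not at the top. Among genes of 10 to 100 CPM the median CV was 33.8% for 85 members and 17.2% for the others, and at 100 to 1000 CPM it was 24.0% for 87 members and 14.4% for the others. At 1000 CPM or more it was 18.1% for 17 members and 18.6% for 56 others. Spread did not follow the fold: the median CV was 26.6% at 10 to 20-fold, 29.7% at 20 to 100-fold and 26.4% at 100-fold or more. Genes chosen by the mirrored rule had median CVs of 46.7% (hypothalamus) and 30.1% (pars tuberalis) in their own tissue, against 28.0% for the members. The spread of the other genes of those tissues was not computed, so whether these values are wide for their tissue is not shown.

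**Figure D3:**
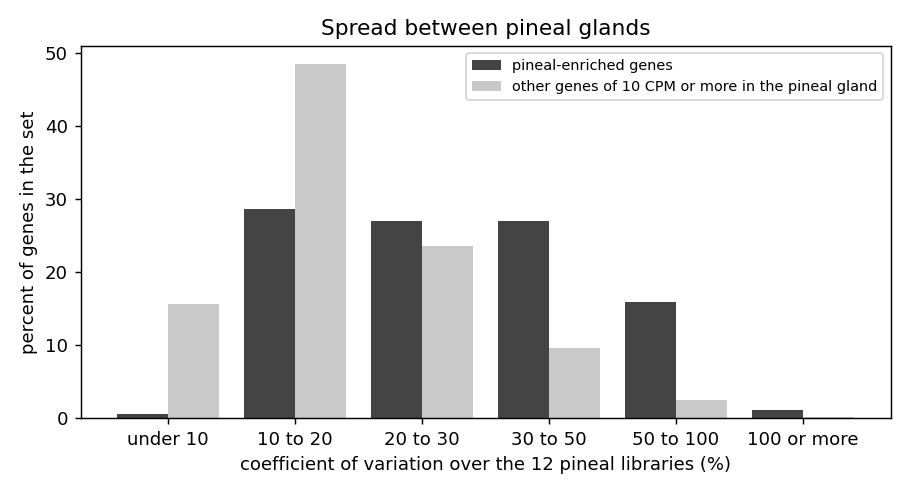
Percent of genes (vertical, from 0) by class of coefficient of variation over the 12 pineal libraries (horizontal, %), for the 189 members (dark bars) and the 10276 other genes of 10 CPM or more in the pineal gland (light bars). Among members 28.6% fall at 10 to 20%, against 48.5% of the others, and 15.9% fall at 50 to 100%, against 2.46%.

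Every gland deviated for some members. Between 4.23% and 12.2% of members lay 2-fold or more from their pineal median in a library, against 0.584% to 3.26% of the other genes. Animal 1 held the highest level of 37 members (19.6%, against 8.73% of other genes) and animal 12 that of 27 (14.3% against 5.87%). Animal 7 held the lowest level of 34 members (18.0% against 6.32%), and animal 6 that of 26 (13.8%), a smaller share than its 20.8% of other genes. Members did not move as 1 block across animals. The median Pearson r of log2 CPM over 17766 pairs of members, across the same 12 libraries, was 0.0751, and 3.69% of pairs were above 0.7. Over pairs of other genes the median was 0.0233 and 6.65% of pairs were above 0.7. All pairs share the library depth and composition.

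The steadiest members were ENSOARG00020009512, at 125 to 170 CPM over the 12 glands (CV 9.61%), and ENSOARG00020025341, at 102 to 141 CPM (CV 10.6%). The least steady was ENSOARG00020000674. Its pineal level was 10.1, 21.1, 3.37, 218, 11.5 and 4.4 CPM in active rams and 4.32, 23.7, 8.00, 1.94, 13.0 and 19.1 CPM in inactive rams (CV 213.5%). The gland of animal 4 alone was far above the others, which all lay under 24 CPM. ENSOARG00020003051 was at 11.1, 8.80, 8.15, 47.2, 80.0 and 9.19 CPM in active and at 11.3, 21.8, 46.4, 4.77, 17.0 and 9.25 CPM in inactive rams (CV 100.4%). Here animals 4, 5 and 9 were high, and both states held high and low glands.

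ENSOARG00020015002 was the only member under 1 CPM in any pineal gland. It stood at 0.219, 24.6, 80.1, 0.473, 0.235 and 29.3 CPM in active rams and at 70.6, 58.2, 0.00, 77.1, 88.5 and 97.2 CPM in inactive rams. The glands fell into separate levels, with animals 1, 4, 5 and 9 at or under 0.473 CPM (49 counts in all) and the other 8 at 24.6 CPM or more. The low glands were 3 of 6 in active and 1 of 6 in inactive rams. In the hypothalamus the same 4 rams had 0 to 0.0343 CPM and 1 count in all, and the other 8 had 0.0519 to 0.556 CPM and 69 counts. In the pars tuberalis they had 0.786 to 2.83 CPM, inside the 0.451 to 13.0 CPM of the others. None of the other 188 members followed this gene across pineal glands with an r of 0.8 or more. Outside the set, the 3 closest genes of 10 CPM or more had an r of 0.892, 0.879 and 0.872. Their medians were 24.6, 17.0 and 207 CPM in the 4 low glands and 30.6, 26.6 and 245 CPM in the other 8. The split into 4 and 8 was seen in the values and has no test.

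Wide ranges also occurred among abundant members. Of the 20 members at 10-fold or more between the highest and lowest gland, 6 had a median of 100 CPM or more, and 11 were highest in an active and 9 in an inactive ram. ENSOARG00020010441 was at 848, 159, 1350, 282, 183 and 331 CPM in active and at 16.2, 696, 420, 737, 211 and 274 CPM in inactive rams. Only animal 7 was under 150 CPM. ENSOARG00020024865 was at 147, 1150, 1680, 926, 37.8 and 42.1 CPM in active and at 945, 230, 414, 229, 420 and 509 CPM in inactive rams. Its 2 lowest and 2 highest glands were all from active rams. Both genes were chosen after their values were seen.

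**Figure D4:**
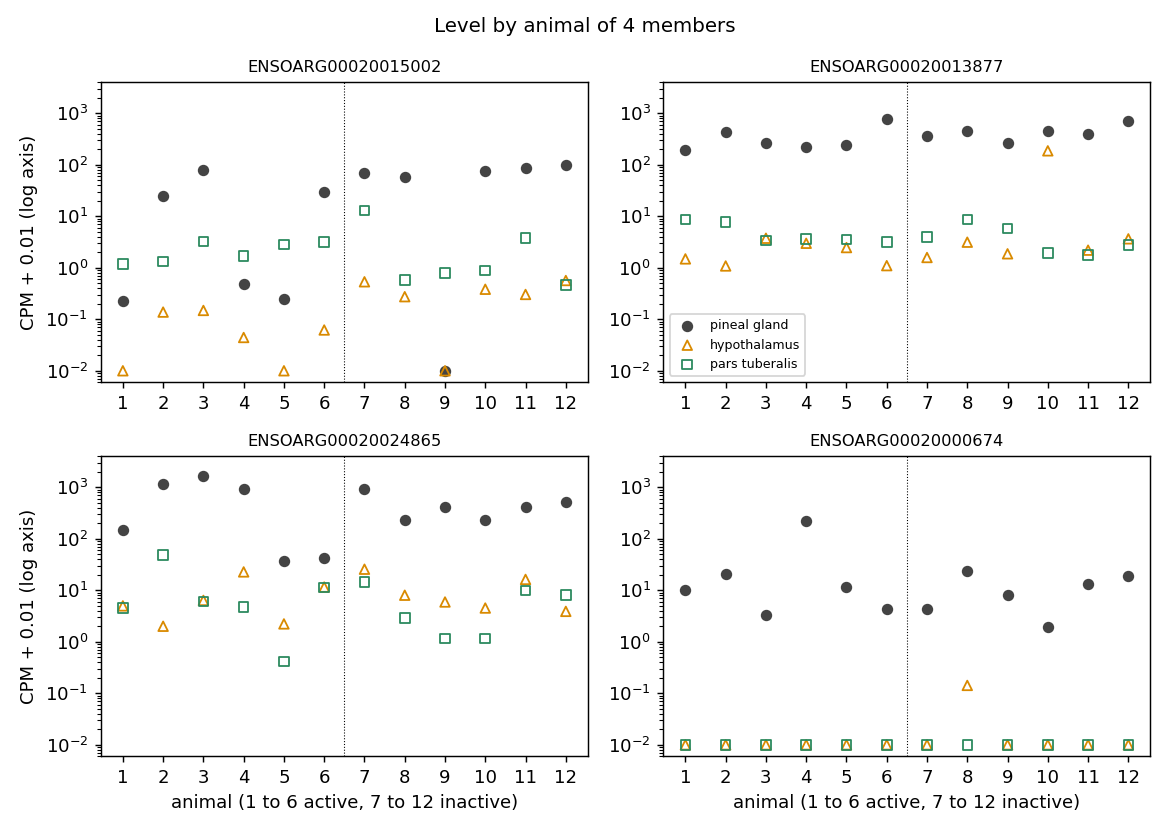
Level of 4 members by animal (horizontal; 1 to 6 active, 7 to 12 inactive) as CPM + 0.01 (vertical, log axis, so that 0 is drawn at 0.01), with filled circles for pineal gland, triangles for hypothalamus and squares for pars tuberalis. The pineal level of ENSOARG00020015002 is at or under 0.473 CPM in animals 1, 4, 5 and 9, ENSOARG00020013877 is at 187 CPM in the hypothalamus of animal 10, and ENSOARG00020000674 is at 218 CPM in the pineal gland of animal 4.

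Correlations between a ram's pineal level and its level in the other tissues were low. Over 114 members measured at a median of 1 CPM or more in the hypothalamus, the median r across the 12 rams between pineal gland and hypothalamus, after removing group means, was 0.132, and it was 0.166 over other genes. For the pars tuberalis the median was 0.0604 over 94 members and 0.134 over other genes. The libraries compared share the animal.

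Sexual behaviour state was then compared within each tissue, which the selection did not use. All 189 members passed the filter on low counts, and state was tested with edgeR's quasi-likelihood test over 16773 genes, with Benjamini-Hochberg adjustment and a call at an adjusted p below 0.05. In the pineal gland 0 of 189 members were called, where the background was 0 of 16773 genes (0.0%). At an unadjusted p below 0.05 there was 1 member, ENSOARG00020000674 (0.529% of members), against 1.94% of all genes. DESeq2 gave 0 members at that limit, against 2.28% of all genes. In limma with no animal term the order turned, with 8 members (4.23%) against 1.64% of all genes. The member share is therefore no result about the members. After adjustment DESeq2 called 0 members too, against 0.119% of all genes. Without the pineal library of animal 10, an alternative chosen after the data were seen, edgeR again called 0 members and 1 had an unadjusted p below 0.05. No member had active and inactive pineal glands without overlap, against 0.0417% of genes. The median log2 difference of the members, active minus inactive, was 0.044 (quartiles -0.053 and 0.20), with 122 positive (64.6%) and 67 negative. The median over all genes was 0.0042, with 51.2% positive. This lean rested on single rams: the median was 0.0029 with 51.3% positive without animal 1, 0.018 with 52.9% positive without the pineal library of animal 10, and 0.10 without animal 12. The 95% interval of the difference lay within 2-fold in either direction for 128 members (67.7%), against 77.2% of all genes, so for the other 61 a 2-fold difference was not excluded at this spread.

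The members with the lowest p on each side in the pineal gland overlapped between the states, and leaving out 1 ram moved several of them. ENSOARG00020000674 differed by a log2 of 1.86 (SE 0.884, adjusted p 1.0 by edgeR with Benjamini-Hochberg adjustment), and without animal 4 by -0.23. ENSOARG00020009965 was at 53.8, 17.8, 52.2, 49.7, 16.2 and 21.3 CPM in active and at 16.6, 9.93, 35.3, 27.0, 22.4 and 30.2 CPM in inactive rams, and the log2 difference was 0.57 (SE 0.311, adjusted p 1.0, edgeR). Animals 1, 3 and 4 were high, and the rest of the active rams lay among the inactive ones. On the lower side, ENSOARG00020001456 was at 4.15, 23.7, 15.2, 3.20, 5.73 and 3.78 CPM in active and at 15.8, 22.0, 8.87, 15.2, 10.2 and 22.4 CPM in inactive rams, and the log2 difference was -0.78 (SE 0.499, adjusted p 1.0, edgeR), and -1.30 without animal 2. Animals 1, 4, 5 and 6 were the lowest, and animal 2 was the highest of all. ENSOARG00020015002, described above, differed by -1.55 (SE 1.01, adjusted p 1.0, edgeR), by -2.53 without animal 3 and by -3.11 in limma with the replicate block.

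In the hypothalamus, where the members are low, 0 of 189 were called by edgeR, against 0.0954% of all genes. An unadjusted p below 0.05 was found for 29 members (15.3%), 23 higher and 6 lower in active rams, against 9.33% of all genes. Many members passed the filter on low counts through their pineal counts alone, so the shares are not like for like. Among genes with a hypothalamus median of 1 CPM or more they were 18 of 114 members (15.8%) and 8.68% of all genes, and below 1 CPM 11 of 75 members (14.7%) and 13.2% of all genes. DESeq2 gave the same order as edgeR, with 29 members (15.3%) against 10.1% of all genes. The order turned in limma with no animal term, which gave 9 members (4.76%) against 8.01% of all genes. The member share is therefore no result about the members. DESeq2 called 7 of 189 members, 6 higher and 1 lower, against 140 of 16773 genes (0.835%), and these shares carry the same limit. The 6 were highest in the hypothalamus library of animal 2 or 4, and the 1 lower in that of animal 10. DESeq2 was not refitted without those libraries. The median log2 difference of the members was 0.12 against 0.014 over all genes, and 0.076 without animal 10. No member separated the states without overlap, against 0.0596% of genes. The interval lay within 2-fold for 63 of the 187 members with a count in this tissue (33.7%, against 72.1% of all genes).

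Of the 23 members leaning higher in active rams, 15 had their highest hypothalamus library in animal 2 and the other 8 in animal 4. Over all members these libraries were the highest for 34 and 30. The library of animal 4 is the one in which pars tuberalis-enriched genes stood at 18.1%, and that of animal 2 had the highest share of members. Without the hypothalamus libraries of animals 2 and 4, an alternative chosen after the data were seen, 12 members (6.35%) had an unadjusted p below 0.05, against 5.66% of all genes in the same fit, and edgeR called 0. The median log2 difference of the members was then 0.067. Of the genes enriched in the pars tuberalis, 50.3% had an unadjusted p below 0.05 for state in the hypothalamus with all libraries, against 9.33% of all genes. What part the makeup of those libraries has in the members' differences was not tested.

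ENSOARG00020007679 was at 0.0321, 2.64, 0.0462, 0.857, 0.0535 and 0.104 CPM in hypothalami of active rams and at 0.0375, 0.0883, 0.0754, 0.0466, 0.0226 and 0.152 CPM in those of inactive rams. Animals 2 and 4 were high and the other active rams lay in the inactive range. The log2 difference was 3.23 (SE 0.806, adjusted p 0.108 by edgeR, 0.00769 by DESeq2), and -0.22 without those 2 libraries. ENSOARG00020023713 reached 8.57 CPM in animal 4 and 0.0375 to 0.600 CPM in the other 11. Its log2 difference was 2.95 (SE 0.818, adjusted p 0.146 by edgeR, 0.00878 by DESeq2) and 0.41 without animal 4.

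On the lower side, ENSOARG00020013877 differed by a log2 of -4.04 (SE 0.892, adjusted p 0.0515 by edgeR, 0.000302 by DESeq2), the lowest adjusted p of any member in this tissue. Without animal 10, whose level is given above, it was -0.28. ENSOARG00020017117 ranged from 0.571 to 3.77 CPM across active rams and from 1.57 to 8.10 CPM across inactive rams, with animal 7 the highest. Its log2 difference was -1.16 (SE 0.358, adjusted p 0.22, edgeR) and -0.62 without animal 7.

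In the pars tuberalis 0 of 189 members were called, against 0.0% of all genes. An unadjusted p below 0.05 was found for 14 members (7.41%), 6 higher and 8 lower in active rams, against 3.54% of all genes, and DESeq2 called 0 members. These shares carry the same limit. Below a pars tuberalis median of 1 CPM they were 7 of 95 members (7.37%) and 7.45% of all genes, and at 1 CPM or more 7 of 94 (7.45%) and 2.82%. At the same unadjusted limit DESeq2 gave 21 of 189 members (11.1%) and 3.97% of all genes, the order of edgeR. Limma with no animal term gave 3 of 189 members (1.59%) and 2.50% of all genes, so the order turned in limma and not in DESeq2. No member separated the states without overlap, against 0.0954% of genes. The median log2 difference was -0.12, with -0.0084 over all genes. It was -0.015 without animal 7, -0.048 without animal 4 and -0.069 without animal 3. The interval lay within 2-fold for 58 of the 185 members with a count (31.4%, against 72.4% of all genes).

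ENSOARG00020019918 was at 11.9 CPM in the pars tuberalis of animal 1, at 0.369 to 1.08 CPM in the other active and at 0.0400 to 0.745 CPM in the inactive rams. Its log2 difference of 2.62 (SE 0.780, adjusted p 0.967, edgeR) was 0.92 without animal 1. ENSOARG00020025341 ranged from 1.54 to 3.95 CPM across active rams and from 1.08 to 1.92 CPM across inactive ones (log2 difference 0.55, SE 0.184, adjusted p 0.967, edgeR), and the difference was 0.345 without animal 5. The states overlapped in both genes. ENSOARG00020018570 ranged from 0.00 to 0.361 CPM across active rams and from 0.0786 to 0.709 CPM across inactive ones (log2 difference -2.04, SE 0.645, adjusted p 0.967, edgeR). ENSOARG00020026342 ranged from 0.319 to 1.98 CPM across active rams and from 1.42 to 2.32 CPM across inactive ones (log2 difference -0.66, SE 0.288, adjusted p 0.967, edgeR).

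**Figure D5:**
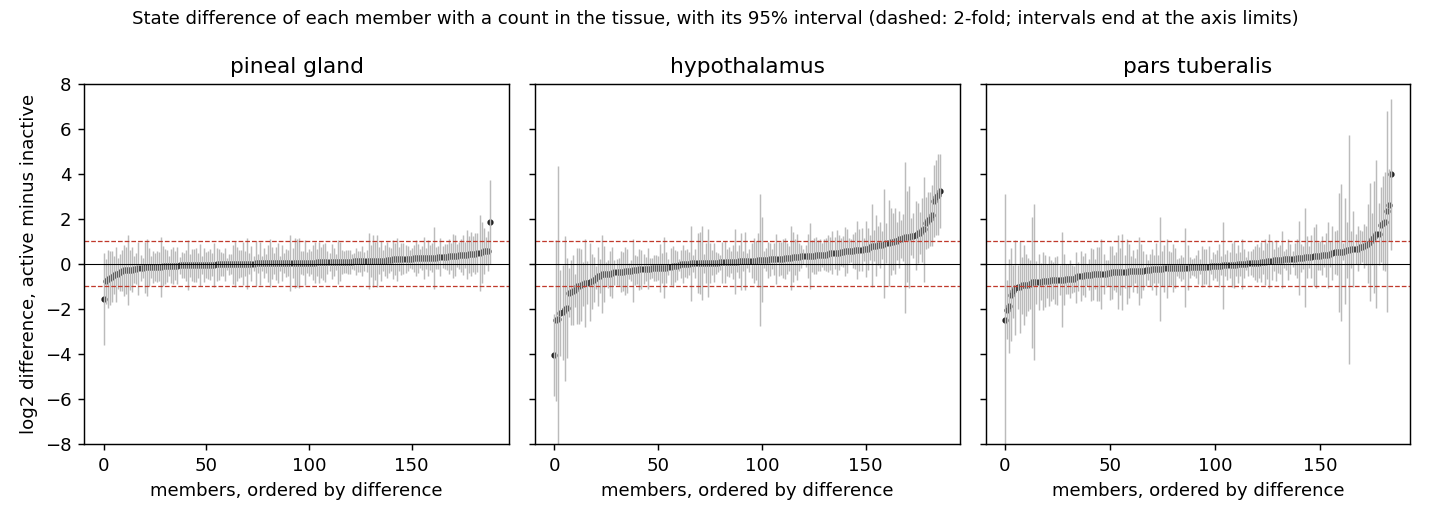
Log2 difference between active and inactive rams (vertical) for each member with a count in the tissue, ordered by the difference (horizontal), in pineal gland (189), hypothalamus (187) and pars tuberalis (185). Points are edgeR estimates, grey lines their 95% intervals and dashed lines 2-fold; the intervals are narrowest in the pineal gland, where 128 lie within 2-fold.

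Whether state differences of the members differed between tissues was asked with an interaction test. Of the 189 members 0 were called by edgeR, against 0.0% of all genes, and 18 (9.52%) had an unadjusted p below 0.05, against 3.24% of all genes. DESeq2 called 0 members. With the animal as a replicate block the number at an unadjusted p below 0.05 was 6 (3.17%), against 2.03% of all genes in that fit. These shares carry the limit given for the hypothalamus, since many members passed the filter through pineal counts alone. They were not split by level and are no result about the members. The lowest p belonged to ENSOARG00020013877 (adjusted p 0.808) and ENSOARG00020023713 (adjusted p 1.0, edgeR), the members set by the hypothalamus libraries of animals 10 and 4.

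The remaining levels outside the pineal gland differed between the other tissues. The selection held both tissues under the same limit and did not compare them with each other. Of the 189 members 127 were called between pars tuberalis and hypothalamus by edgeR, 41 higher in pars tuberalis and 86 higher in hypothalamus. Of all genes 35.6% were called higher in the pars tuberalis and 36.4% higher in the hypothalamus, so the total share called was near the background and the members' calls leaned to the hypothalamus. Many members passed the filter on low counts through their pineal counts alone, so these shares are not like for like. That limit also holds for the 2-fold shares and the median differences below, and none were split by level. At 2-fold or more the numbers were 27 (14.3%) and 70 (37.0%), against 14.5% and 21.7% of all genes, so at this size all genes leaned the same way. The median log2 difference, pars tuberalis minus hypothalamus, was -0.46 over members and 0.0072 over all genes. Without the hypothalamus libraries of animals 2 and 4, again chosen after the data were seen, 127 members were called, 44 and 83. By tissue medians the lean was weaker, with 100 members higher in hypothalamus, 81 higher in pars tuberalis and 8 equal. Among 63 members at 10 to 20-fold, 15 were called higher in pars tuberalis and 37 in hypothalamus. Among 70 at 20 to 100-fold the numbers were 16 and 33, and among 56 at 100-fold or more they were 10 and 16. In that last class 30 of 56 members were not called, and both directions fell below the shares of all genes. That class is set by low levels in both compared tissues, so its share of calls is no result about the members.

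ENSOARG00020023705 was at 0.672 to 8.44 CPM in the pars tuberalis of the 12 rams, 1032 counts in all, and had 2 counts in the hypothalamus, both in animal 7. The pooled ratio was 555 (95% counting interval 153 to 4590). The edgeR test, which compares fitted group means and not pooled counts, gave an adjusted p of 2.74e-14. ENSOARG00020020915 was at 2.66 to 6.05 CPM in the pars tuberalis and at 0.00 to 0.323 CPM in 11 hypothalamus libraries, with 3.43 CPM in animal 4. Its log2 difference was 4.34 (SE 0.492, adjusted p 1.58e-09, edgeR) and 5.97 without animal 4. In the pars tuberalis both genes were present in every ram.

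Higher in the hypothalamus were ENSOARG00020010919 and ENSOARG00020020411. ENSOARG00020010919 was at 0.321 to 8.86 CPM in the hypothalamus, 738 counts in all with the highest level in animal 2, and had 3 counts in the pars tuberalis. Its pooled ratio was 229 (78.0 to 1110), and the edgeR test of the group means gave an adjusted p of 1.04e-08. ENSOARG00020020411 was at 0.0256 to 4.17 CPM in the hypothalamus, 640 counts in all, and also had 3 counts in the pars tuberalis. Its pooled ratio was 198 (67.6 to 964), and the edgeR test of the group means gave an adjusted p of 1.65e-09. Its hypothalamic level was under 0.6 CPM in 5 rams and at 1.53 CPM or more in 7, in both states.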

How the data were processed

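Messenger RNA libraries were made from frozen hypothalamus, pars tuberalis and pineal gland with a stranded kit, adaptors with unique molecular identifiers and paired-end NovaSeq reads, per the labels' protocols. The submitters' processing notes name STAR 2.7.8a, HTSeq, FastQC and edgeR without their roles. Nothing in the sources used here gives the genome build, annotation, strand setting, handling of multi-mapped reads or any collapsing by molecular identifier, so near-identical copies and overlapping or antisense genes are uncertain, and counting intervals and floors leave out any error beyond counting. The authors deposited raw counts per gene, whole and not normalised, for 26478 Ensembl sheep identifiers in 36 libraries, of which 3860 had no count. Over 90 pairs of libraries of a group, chi-square per degree of freedom was 37.5 or more, so none was a copy of another of its group.

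Levels are count over library total times 1000000. State and tissue were tested in R 4.3.3 with edgeR 4.0.16: the default filter (minimum count 10) kept 16773 genes and removed 9705, libraries were scaled by TMM, and 1 robust quasi-likelihood fit with 1 mean per group (30 residual degrees of freedom) was made on all 36 libraries. SE is the absolute log2 difference over the square root of F. The fit was tested on simulated data. Alternatives were DESeq2 1.42.0, other filters and scalings, each animal left out, a replicate block on the animal (limma 3.58.1 for state), other limits of the selection, and, added after the data were seen, libraries left out, limma with no animal term and a split by level in the tissue compared. Replicate numbers are animals, so they pair the tissues: deviations from group means correlated at a median of 0.181 for pineal gland and hypothalamus, 0.229 for pineal gland and pars tuberalis and 0.0396 for hypothalamus and pars tuberalis.

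The members and lists were chosen with earlier results of these data known. Lists of gene symbols were not used, because 0 identifiers matched a symbol. The identifiers named are the 2 of highest pineal median, of largest pooled ratio, of highest and lowest CV and nearest each limit, and for each comparison the 2 in each direction of lowest p (for tissues, of largest difference among those called). Others are stated to be chosen after their values were seen. Coefficients of variation and correlations used CPM and log2(CPM + 0.1).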

Additional observations from a re-analysis of the deposited data

Results flagged for a closer look

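In 70 groups of 6 libraries examined for a sample far from the others, 17 had one. The cut-off would flag about 1 in 20 groups of normally distributed values. Members named for a high CV or a low p were among those examined, so the 2 rates cannot be compared. For sums over members, the hypothalamus library of active animal 2 held 0.241% of counts in members (next 0.176%), the hypothalamus of inactive animal 10 stood at 0.677% of the pineal level for the members at 100-fold or more (next 0.218%), and the pineal gland of active animal 1 stood at 127.0% of the pineal level for the same members (next 107%).

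In the pineal gland, single rams stood far above their group for ENSOARG00020005641 (4280 CPM in inactive animal 10, next 2130 CPM), ENSOARG00020000674 (218 CPM in active animal 4, next 21.1 CPM) and ENSOARG00020015002 (80.1 CPM in active animal 3, next 29.3 CPM).

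In the hypothalamus, active animal 2 was far above its group for ENSOARG00020007679 (2.64 CPM, next 0.857 CPM) and ENSOARG00020010919 (8.86 CPM, next 1.52 CPM). Active animal 4 was so for ENSOARG00020023713 (8.57 CPM, next 0.600 CPM), ENSOARG00020017117 (3.77 CPM, next 1.43 CPM) and ENSOARG00020020915 (3.43 CPM, next 0.323 CPM). Inactive animal 10 was so for ENSOARG00020013877 (187 CPM, next 3.64 CPM). Inactive animal 7 was so for ENSOARG00020017117 (8.10 CPM, next 3.70 CPM) and for ENSOARG00020023705 (0.075 CPM from 2 counts, all others at 0).

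In the pars tuberalis, active animal 1 was far above its group for ENSOARG00020019918 (11.9 CPM, next 1.08 CPM) and ENSOARG00020023705 (8.44 CPM, next 3.17 CPM), and active animal 6 for ENSOARG00020018570 (0.361 CPM, next 0.113 CPM). Several of these members were named for their difference by state, so a single high library made them more likely to be named. Of the 17, 6 are the hypothalamus libraries of animals 2 and 4.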

How the results depend on the processing

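Of 132 alternative values of results across members, 125 were labelled the same as the main value and 7 as moved. A count of calls was the same if equal to the main count or within 1.5 times of it, and many stayed at 0. The median pineal state difference, 0.044, was labelled the same from 0.0029 to 0.10. Those that moved were these: members called by state in the hypothalamus were 7 by DESeq2 and ranged from 0 to 1 when each animal was left out (1 without animal 5, ENSOARG00020007679, and 1 without animal 8, ENSOARG00020013877); the selection held 331 genes at a fold limit of 5 and 76 at 50, from 189; and the summed level outside the pineal gland, 2.35% (hypothalamus) and 1.66% (pars tuberalis) of the pineal level, was 1.77% and 1.18% as a median over members. With a replicate block on the animal, 128 members were called between pars tuberalis and hypothalamus, 126 of them shared with the 127 called without it and of the same sign; state and interaction calls stayed at 0 and the median pineal state difference was 0.055. The block changed no call count by over 1.5 times. For state it was fitted in limma. At an unadjusted p below 0.05 that fit had 7 members in pineal gland (3.70%, against 1.74% of all genes), 8 in hypothalamus (4.23% against 8.01%) and 3 in pars tuberalis (1.59% against 2.55%). By edgeR the numbers were 1 (0.529% against 1.94%), 29 (15.3% against 9.33%) and 14 (7.41% against 3.54%). Limma with no animal term, added after the data were seen, had 8 (4.23% against 1.64%), 9 (4.76% against 8.01%) and 3 (1.59% against 2.50%). Limma gave near the same numbers with and without the block, and for state the block was not fitted in edgeR. Of the single members, ENSOARG00020000674 ranged from -0.23 (without animal 4) to 2.20 in the pineal gland as each animal was left out, and ENSOARG00020007679 turned to -0.22 in the hypothalamus without the libraries of animals 2 and 4, an alternative chosen after the data were seen. As each animal was left out, the median pineal state difference of the members ranged from 0.0029 (without animal 1) to 0.10 (without animal 12). Outside the pineal gland, where many members hold few counts, 2-fold state differences were not excluded for most members. What made those intervals wide was not tested.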

Other observations

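The selection itself was steady to how levels were scaled: scaling by TMM gave 189 members, 186 of them shared, and means in place of medians gave 186, with 180 shared. Leaving out each animal gave 184 to 190 members.

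Genes enriched in the other tissues were also compared by state. In the hypothalamus 4 of 176 hypothalamus-enriched genes (2.27%, against 9.33% of all genes) had an unadjusted p below 0.05 by edgeR. In the pars tuberalis 3 of 169 pars tuberalis-enriched genes (1.78% against 3.54%) did. In the hypothalamus 85 of the 169 pars tuberalis-enriched genes (50.3% against 9.33%) did. After Benjamini-Hochberg adjustment 7 of them were called, against 0.0954% of all genes. The hypothalamus library of active animal 4 held these genes at 18.1% of their own level, against 1.90% to 4.76% in the others. What part that library has in these counts was not tested.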
